A study of Mus musculus with 27 samples.

Results

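The genes described here are the mouse chemokine ligands: every entry of the table of normalized counts whose symbol is Ccl or Cxcl followed by a number, with Cxcl12 left out, together with Cx3cl1 and Xcl1. They were chosen by symbol, and 43 of the 30153 entries matched. These 43 entries carry 37 different symbols, with 29 Ccl entries, 12 Cxcl entries, Cx3cl1 and Xcl1. A total of 30 entries (18 Ccl, 11 Cxcl and Cx3cl1) reached a normalized count of 10 in at least 3 libraries and were tested, and 13 did not.

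The study profiled Prx1-derived cells of 3 hindlimb tissues, skeletal muscle, periosteum (the sheath around bone) and bone marrow, by RNA sequencing in 27 libraries. Prx1 is a transcription factor of limb mesenchyme. All cells came from Prx1-CreER/Ai14/Rag1 mice of both sexes aged 8 to 12 weeks, in which a CreER under the Prx1 promoter turned on a tdTomato reporter in Prx1-expressing cells after 2 doses of tamoxifen, with harvest 3 days later. The reporter therefore marks cells that expressed Prx1 and their descendants, and every group, also those used as the reference of a comparison, carried the Rag1 allele that leaves mice without mature T and B cells. From each tissue, tdTomato-positive cells without CD45, the surface protein of blood leukocytes, were sorted by 2 further surface proteins. P1 lacked CD105 and carried CD200, P2 lacked both, and P3 carried CD105 with variable CD200. This gave 9 groups of 3 libraries. The tissues came from the same animals, but the labels do not tie a library to an animal, so a p-value here measures the spread between libraries. Muscle was digested for 60 min and periosteum for 20 min, and marrow was flushed out, so tissue and tissue handling cannot be told apart. In sorted bulk samples, fewer cells of a type and less RNA per cell also cannot be told apart.

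Chemokines are small secreted or membrane-bound proteins that guide leukocytes along gradients through receptors on the cell surface. Resident mesenchymal and endothelial cells make inflammatory ligands such as Cxcl1 and Ccl2 in bursts after injury or cytokine signals, largely through NF-kappaB, and make homeostatic ligands such as Ccl21a and Ccl19 constantly to direct lymphocytes and dendritic cells. The families are named by the first cysteines of the mature protein, which are adjacent in the CC (Ccl) ligands, separated by 1 residue in the CXC (Cxcl) ligands and by 3 in Cx3cl1.

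The start of the mature protein is shown for the 6 ligands with the highest group means, because it carries the spacing that separates these families. Each stretch is 33 bases of coding sequence from GENCODE M21 on the mouse genome build GRCm38, 5′ to 3′, and capitals mark the codons of the first 2 cysteines of the motif.
Cxcl1: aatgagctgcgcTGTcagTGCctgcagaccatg
Ccl2: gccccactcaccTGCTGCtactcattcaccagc
Ccl7: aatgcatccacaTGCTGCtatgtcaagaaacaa
Ccl11: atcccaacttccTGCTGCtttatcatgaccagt
Ccl21a: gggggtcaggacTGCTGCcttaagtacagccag
Cx3cl1: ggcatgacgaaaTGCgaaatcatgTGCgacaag
In Cxcl1 the codons just before the first cysteine spell glutamate, leucine and arginine, the ELR motif of the neutrophil-attracting CXC ligands. Cxcl1 lies on chromosome 5 (chr5:90891241-90893115, plus strand), Ccl2, Ccl7 and Ccl11 lie side by side on chromosome 11 (chr11:82035571-82037453, chr11:82045712-82047525 and chr11:82057823-82062955, plus strand), Ccl21a lies on chromosome 4 (chr4:42772860-42773993, minus strand) and Cx3cl1 on chromosome 8 (chr8:94772009-94782427, plus strand). Some members share sequence, and how the counting treated shared reads is not given in the sources used here. The coding sequence of Ccl21a matched that of a Ccl21b entry at 397 of 399 bases, and Cxcl3 matched Cxcl2 at 269 of 300, so the split of reads within these pairs is uncertain. Ccl7, Ccl8 and Ccl11 were between 60.82% and 63.23% identical over 291 coding bases.

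Chemokine ligands took a larger share of the libraries of muscle than of the other tissues. The 43 entries together took 0.108% to 0.588% of a muscle library (median 0.251%, n = 9), 0.0135% to 0.0898% of a periosteum library (median 0.038%) and 0.00504% to 0.0678% of a bone marrow library (median 0.0143%). Every muscle library lay above every library of the other tissues. The share was 0.371% ± 0.1953 (SD, n = 3) in muscle P1, 0.1172% ± 0.01387 in muscle P2 and 0.3684% ± 0.1907 in muscle P3, and the 3 libraries of muscle P2 were the lowest of that tissue, a difference that was not tested. Cxcl1 took the most normalized counts of all members in all 9 muscle libraries, whereas Cxcl14 did so in all 6 P1 and P3 libraries of bone marrow.

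**Figure D1:**
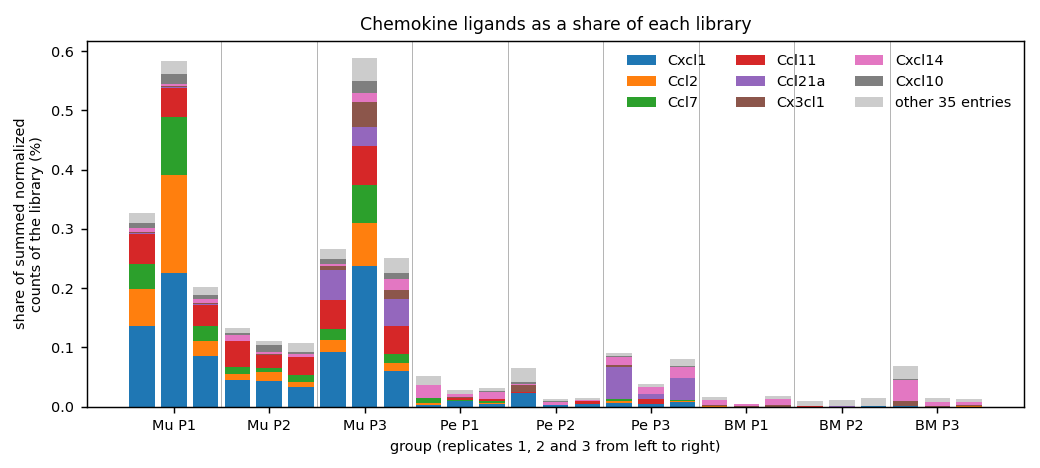
Share of each library's normalized counts taken by the chemokine ligand entries, in percent, with 1 bar for each of the 27 libraries (replicates 1 to 3 from left to right in each group) and colours for the 8 members with the most normalized counts and the other 35 entries. The muscle bars reach 0.108% to 0.588% and are mostly Cxcl1, Ccl2, Ccl7 and Ccl11, and no bar of periosteum or bone marrow exceeds 0.0898%.

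Differences between tissues were tested with limma on log2(normalized count + 1), over the means of P1, P2 and P3, and a gene was called when its Benjamini-Hochberg adjusted p was under 0.05 and its log2 difference was over 1.5 in size. On this scale the change of a low gene is understated. In muscle against periosteum, limma called 15 of the 30 members higher and 0 lower, beside 17.2% and 3.19% of all 18442 genes tested, and 16 members had an unadjusted p under 0.05. Among those called, Cxcl3, Ccl8 and Cxcl13 passed the filter only with muscle libraries. They had 0, 1 and 1 periosteum libraries and 0 marrow libraries at 10 or more, so these calls are not independent of the filter. The median log2 difference was 2.14 over the members and 0.56 over all genes. Against bone marrow, 11 members were higher and 3 lower in muscle, beside 10.9% and 10.8% of all genes, with a median of 1.13 over the members and −0.10 over all genes. Between periosteum and bone marrow, 6 members were higher and 4 lower in periosteum, beside 4.01% and 16.8% of all genes, with medians of 0.10 and −0.69. Quantile normalization brought the median of all genes to −0.01, −0.13 and −0.10. The same 3 comparisons then gave 10 members higher and 3 lower, 12 higher and 4 lower, and 8 higher and 2 lower. Of all 18442 genes, 1915 were then higher and 1971 lower in the first comparison. The counts were 2387 and 2366 in the second and 1582 and 1574 in the last.

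The libraries of P2 stood apart, with myofibre markers summing to 2265845 to 2626418 normalized counts in muscle P2 and erythroid markers to 8057555 to 12811928 in bone marrow P2 and 3449522 to 9542268 in periosteum P2. A fit with P1 and P3 alone was chosen after the data were seen. In the first comparison limma then called 13 members higher and 0 lower, beside 11.5% and 1.33% of all genes. The second gave 12 higher and 2 lower, beside 11% and 5.32%, and the last 5 higher and 3 lower, beside 3.93% and 8.23%. The calls lost were those of Cxcl16, Cxcl9 and Ccl27a against periosteum, of Ccl9, Cxcl14 and Ccl27a between muscle and marrow, and of Cxcl14 and Cxcl9 between periosteum and marrow. The calls gained were those of Cx3cl1 against periosteum and of Ccl24, Cxcl5 and Cxcl11 between muscle and marrow.

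**Figure D2:**
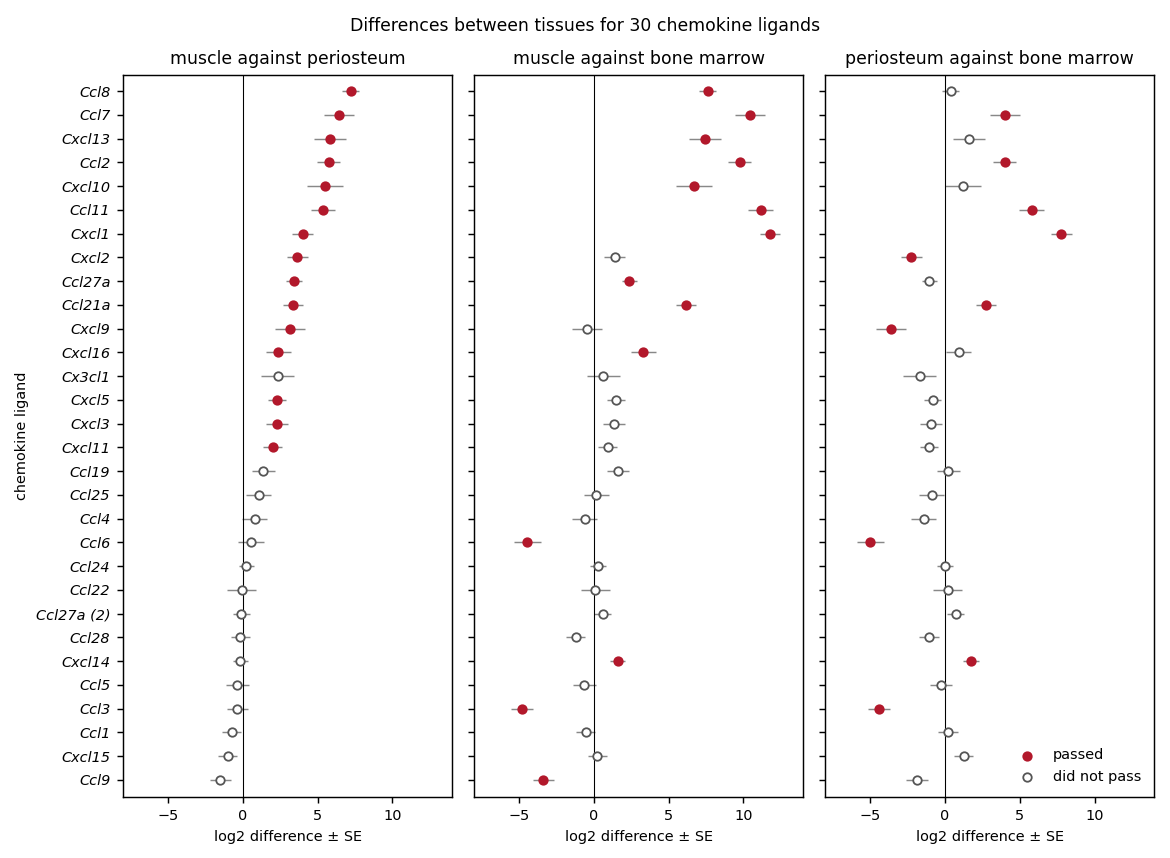
Log2 difference in normalized count (with a pseudocount of 1) between tissues for each of the 30 members tested, with bars of 1 standard error and filled points for the called members, in 3 panels for muscle against periosteum, muscle against bone marrow and periosteum against bone marrow. Most points of the first panel lie to the right of 0, with 15 called higher and none lower, and Cxcl1 and Ccl11 lie farthest right in the second panel at 11.78 and 11.15.

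Cxcl1, a neutrophil attractant that acts through the receptor Cxcr2, had the highest group mean per kilobase of exon of all members. Its normalized counts in muscle were 15995, 27689 and 9525 in P1, 7997, 8112 and 6259 in P2 and 10449, 27190 and 6323 in P3. In periosteum they were 271, 1234 and 459 in P1, 3195, 453 and 864 in P2 and 545, 516 and 817 in P3. In bone marrow no library exceeded 28.0, and 4 of 9 were listed at 0. The 3 tissues did not overlap. Cxcl1 was higher in muscle than in periosteum by 4.0 on the log2 scale (SE 0.69, adjusted p = 0.000175) and than in bone marrow by 11.78 (SE 0.69, adjusted p = 4.75e-12), and it was higher in periosteum than in marrow by 7.78 (SE 0.69, adjusted p = 9.83e-09).

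Over all populations, the other ligands of the same stretch of chromosome 5 were also called higher in muscle than in periosteum, except Cxcl15. Cxcl2, which shares the receptor Cxcr2, was 301, 829 and 134 in muscle P1, 79.4, 97.3 and 90.7 in muscle P2 and 92.3, 336 and 71.5 in muscle P3. In periosteum it was 463, 414 and 265 in P2 but between 0 and 1.36 in P1 and between 0 and 59.7 in P3. Every periosteum P2 library thus lay above every muscle P2 library, while the other periosteal populations lay under every muscle library. The comparison over all populations therefore averaged opposite directions. Cxcl2 was called higher in muscle than in periosteum (3.65, SE 0.69, adjusted p = 0.000514) and, between periosteum and marrow, higher in marrow (−2.26, SE 0.69, adjusted p = 0.0192), where it was 5.28 to 331 (median 65.0, n = 9). Cxcl5, also a Cxcr2 ligand, was 19.8 to 246 in muscle and 5.02 to 64.0 in periosteum (log2 difference 2.30, SE 0.58, adjusted p = 0.00571). Cxcl3 was listed at 0 in all periosteum libraries and reached 30.2 in muscle, which the test also called. The call held in 15 of 18 fits that left out 1 library. Cxcl3 passed the filter through muscle libraries alone, so its call is not independent of the filter. Cxcl15, better known from the lung, did not pass in any tissue comparison.

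The Cxcl1 promoter is shown because it holds a group of NF-kappaB motifs upstream of the start of the member with the highest group mean. The stretch is from RefSeq (GRCm38.p6, chr5:90891125-90891204, plus strand) and runs from 120 to 41 bases before the start site. Capitals mark matches on either strand to the letters GGG, any 4 bases and TCC, and matches overlap each other in the second block.
Cxcl1 promoter: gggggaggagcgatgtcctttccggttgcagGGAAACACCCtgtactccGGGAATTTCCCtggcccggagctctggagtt
This motif occurred in 9 of the 32 member promoters found in the RefSeq table (250 bases before to 50 after the start) and in 19.2% of all 32851 promoters of that length. Ccl27a, Ccl27b and Ccl25 have several promoters each among the 32. Other members, among them Ccl2, Ccl7, Ccl11, Cxcl5 and Cxcl16, have none there, so these counts do not cover them. The narrower form GGG, any 2 bases and TTTCC occurred in 5 of 32, those of Cxcl1, Cxcl2, Cxcl3, Ccl9 and Ccl20, and in 1.63% of all promoters. The promoters of Cxcl1, Cxcl2 and Cxcl3 belong to neighbouring genes of like sequence and are not independent examples. A match describes these letters alone.

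Ligands that attract monocytes and eosinophils and lie side by side on chromosome 11 were higher in muscle than in both other tissues. Ccl2, the main ligand of the monocyte receptor Ccr2, was 7227, 20228 and 2863 in muscle P1, 1941, 2779.8 and 1402 in muscle P2 and 2199.6, 8439 and 1412 in muscle P3. In periosteum Ccl2 was 592, 159 and 343 in P1, 8.31, 7.13 and 30.3 in P2 and 352, 3.67 and 158 in P3, and in bone marrow it was at most 44.4. No library of periosteum or bone marrow reached the lowest muscle library. The log2 difference was 5.76 against periosteum (SE 0.77, adjusted p = 7.97e-06) and 9.75 against bone marrow (SE 0.77, adjusted p = 6.86e-10).

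Ccl7, a further Ccr2 ligand, followed Ccl2. It was 5042, 12067 and 2873 in muscle P1, 2013, 1329 and 2268 in muscle P2 and 2186, 7344 and 1603 in muscle P3, between 0 and 1035 in periosteum (median 108, n = 9) and at most 5.45 in bone marrow. The groups of muscle did not overlap with those of the other tissues. The log2 difference was 6.45 against periosteum (SE 1.004, adjusted p = 5.62e-05) and 10.45 against marrow (SE 1.004, adjusted p = 1.99e-08). Per kilobase of exon, the levels of Cxcl1, Ccl2 and Ccl7 in muscle P1 were 9459 ± 4910.1, 8881 ± 7938 and 8316 ± 5999.8 normalized counts (SD, n = 3). The genes were read in the same libraries, and differences between them were not tested.

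Ccl11, the eosinophil attractant eotaxin, was also high in all muscle libraries. It was 5907, 6132 and 3919.7 in muscle P1, 7956, 4073 and 5528 in muscle P2 and 5384, 7681 and 5059 in muscle P3. The 3 muscle populations overlapped throughout. In periosteum Ccl11 ranged from 2.02 to 1030.3 (median 227, n = 9) with both ends in P3. In bone marrow it was listed at 0 in all libraries of P1 and P3 and was 14.7, 8.23 and 21.9 in P2. The log2 difference was 5.36 against periosteum (SE 0.83, adjusted p = 5.18e-05) and 11.15 against marrow (SE 0.83, adjusted p = 2.59e-10), and Ccl11 was also higher in periosteum than in marrow (5.79, SE 0.83, adjusted p = 1.68e-05).

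Ccl8, a monocyte attractant next to them on the chromosome, was present in every muscle library and listed at 0 in most others. It was 133 to 409.9 in muscle (median 235, n = 9), 0 in 7 of 9 periosteum libraries with a highest value of 31.0, and 0 in 8 of 9 marrow libraries. The log2 difference from periosteum was 7.21 (SE 0.57, adjusted p = 5.19e-09), the largest of the members in that comparison, and from marrow it was 7.61 (SE 0.57, adjusted p = 2.77e-10). Muscle overlapped neither tissue. Ccl24, a second eosinophil attractant, was at most 10.05 in muscle and did not pass in these comparisons, although it did between muscle and marrow with P1 and P3 alone.

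**Figure D3:**
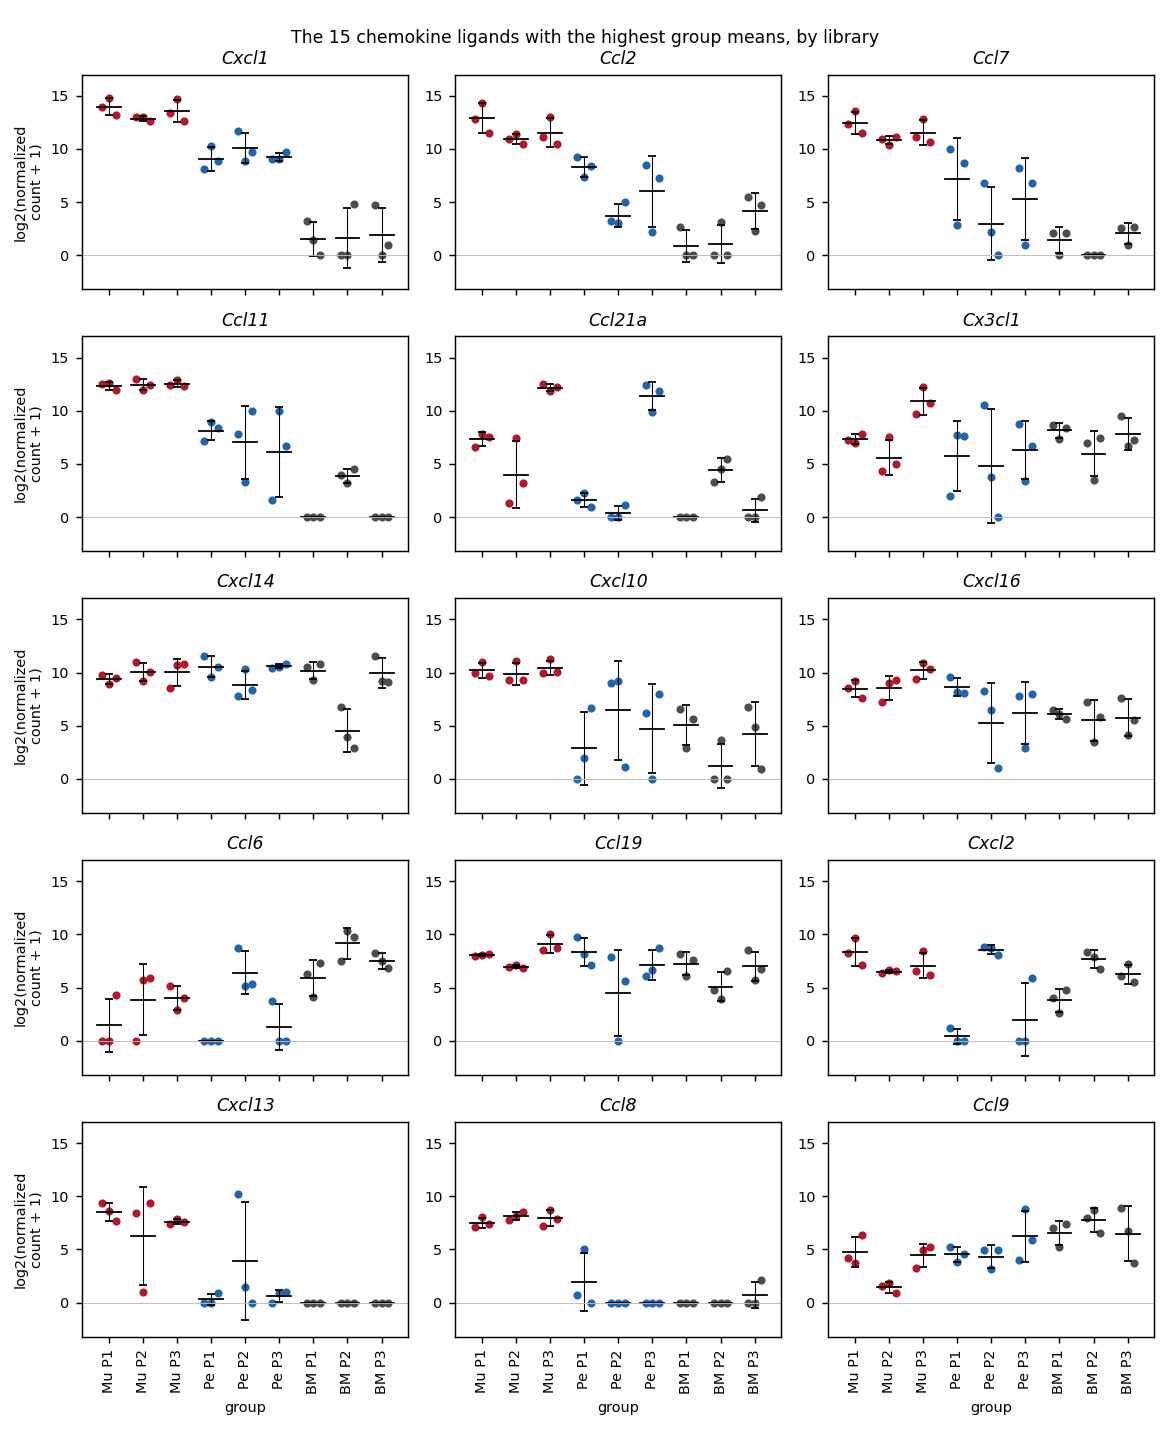
Log2(normalized count + 1) of the 15 members with the highest group means, 1 panel each, by group (Mu muscle, Pe periosteum, BM bone marrow, each with P1, P2 and P3), where points are the 3 libraries, lines are group means and bars are 1 SD. For Cxcl1, Ccl2, Ccl7, Ccl11, Ccl8 and Cxcl10 all points of muscle lie above those of the other tissues, and Ccl21a is high in P3 of muscle and periosteum, at 940 to 5699.8 normalized counts.

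Neighbouring genes did not all follow the same tissues. The stretch of chromosome 11 from Ccl2 to Ccl1 (chr11:82035571-82305690) holds 6 members, of which Ccl2, Ccl7, Ccl11 and Ccl8 were called higher in muscle than in both other tissues, while Ccl1, a T cell attractant, was at most 2.45 in muscle and Ccl12 was not kept. A second stretch (chr11:83525778-83664683) holds Ccl5, Ccl9, Ccl6, Ccl3 and Ccl4, and Ccl3, Ccl6 and Ccl9 were called lower in muscle than in marrow. On chromosome 5, Cxcl5, Cxcl3, Cxcl1 and Cxcl2 of the run from Cxcl5 to Cxcl2 (chr5:90759360-90905938), and Cxcl9, Cxcl10 and Cxcl11 of the run from Cxcl9 to Cxcl11 (chr5:92321347-92365485), were called higher in muscle than in periosteum.

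**Figure D4:**
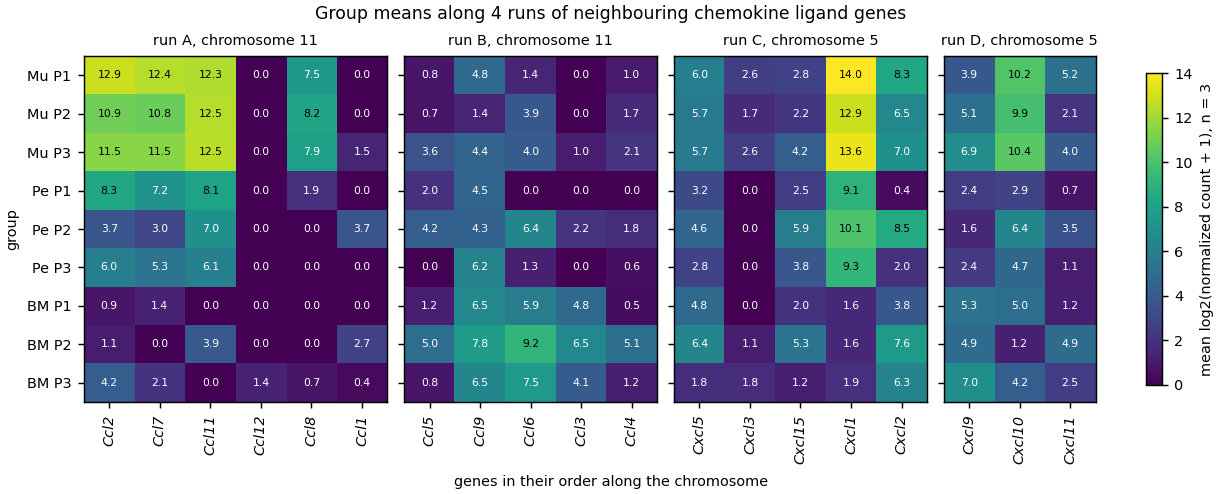
Heat map of the group mean of log2(normalized count + 1) for members in chromosomal order along 4 runs of neighbouring genes (runs A and B on chromosome 11, runs C and D on chromosome 5), with 1 line of cells for each of the 9 groups and 1 column for each gene. The Ccl2, Ccl7, Ccl11 and Ccl8 columns of run A are high in the 3 muscle groups, with means of 12.87, 10.94 and 11.54 for Ccl2 in P1, P2 and P3, and the Ccl6 and Ccl3 columns of run B are highest in bone marrow P2.

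The ligands of Cxcr3, a receptor of activated T cells, which interferons induce, were all called higher in muscle than in periosteum, but of them only Cxcl10 was called higher in muscle than in bone marrow. Cxcl10 was 611 to 2419 in muscle (median 1025, n = 9), 0 to 575 in periosteum (median 73.1) and 0 to 108 in bone marrow (median 11.3), with no overlap between muscle and the others. The log2 difference was 5.50 against periosteum (SE 1.20, adjusted p = 0.00177) and 6.70 against marrow (SE 1.20, adjusted p = 0.000134). Cxcl9 was 5.75 to 131 in muscle, 0 to 152 in periosteum and 16.8 to 235 in marrow. It was called higher in muscle than in periosteum (3.17, SE 1.01, adjusted p = 0.0245), which held in 13 of 18 fits that left out 1 library, and lower in periosteum than in marrow (−3.60, SE 1.01, adjusted p = 0.011). Between muscle and marrow its difference was −0.43 (SE 1.01, adjusted p = 0.797). Cxcl11 was at most 44.7 in muscle and 15.9 in periosteum (log2 difference 1.99, SE 0.62, adjusted p = 0.0214), with a difference of 0.91 from marrow (SE 0.62, adjusted p = 0.302), and the mouse reference strain's Cxcl11 is annotated as a polymorphic pseudogene. Cxcl10 and Cxcl11 overlap Art3 on the opposite strand, and whether the counting used strand is not given in the sources used here.

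The membrane-bound ligand Cxcl16, which binds Cxcr6 and also scavenges oxidized lipoprotein, was 152 to 1932 in muscle, 1.06 to 774 in periosteum and 9.78 to 189 in marrow. It was higher in muscle than in periosteum by 2.38 (SE 0.84, adjusted p = 0.0409) and than in marrow by 3.30 (SE 0.84, adjusted p = 0.00418). The ranges of muscle and periosteum overlapped, and the call against periosteum held in 8 of 18 fits that left out 1 library. Cx3cl1, the other membrane-bound ligand, fractalkine, was 811, 4830.1 and 1689.9 in muscle P3 against 18.7 to 226 in the other muscle groups. In periosteum it ranged from 0 to 1525, with both ends in P2, and in bone marrow from 10.3 to 708. It was called in none of the 3 tissue comparisons over all populations and was called against periosteum with P1 and P3 alone, and P3 against P1 and P2 in muscle gave a log2 difference of 4.40 (SE 1.64, adjusted p = 0.155) although those libraries did not overlap.

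Cxcl14, a constitutive ligand of epithelia and stroma, was spread over all 3 tissues. It was 366 to 1984 in muscle, 226 to 2975 in periosteum and 6.38 to 3104 in bone marrow, where P2 had the 3 lowest values, 111, 13.9 and 6.38. It was called higher in muscle than in marrow (1.59, SE 0.51, adjusted p = 0.0227) and higher in periosteum than in marrow (1.76, SE 0.51, adjusted p = 0.0146). Without the P2 libraries the difference of muscle from marrow was −0.38 (SE 0.51, adjusted p = 0.679), so the call rested on P2. It held in 10 of 18 fits that left out 1 library.

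Homeostatic ligands of lymphoid tissue took different patterns. Ccl21a, which draws dendritic cells and T cells through Ccr7 into lymphatic vessels and nodes, was 5699.8, 3660 and 4759 in muscle P3 and 5375, 940 and 3611 in periosteum P3. In P1 and P2 it was 1.44 to 231 in muscle and 0 to 3.75 in periosteum, and in bone marrow it was at most 43.3 in P2 and 2.73 in P3. P3 of muscle and of periosteum lay above every other library. P3 was compared with P1 and P2 after the data were seen, and Ccl21a was higher in P3 by 6.53 in muscle (SE 1.005, adjusted p = 0.00019) and by 10.38 in periosteum (SE 1.005, adjusted p = 7.08e-07). In muscle, Ccl21a was the 1 member called of 30, beside 4.08% of all genes. In periosteum 3 members were called, beside 6.21% of all genes. The others were the Ccl27a entry (2.62, SE 0.76, adjusted p = 0.04) and a second, scaffold entry of Ccl27a listed at 0 in all P1 and P2 libraries. The first entry was 0 in all P2 libraries and overlapped between P1 and P3. The scaffold entry reached 10 in 3 libraries, 2 of them of periosteum P3, so it passed the filter only with the group where it was called higher. The 2 Ccl27a calls held in 6 and 2 of 9 fits that left out 1 library. In bone marrow Cxcl5 was the 1 member called, lower in P3 by 3.75 (SE 0.87, adjusted p = 0.0131), beside 3.39% of all genes.

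Endothelial markers moved with Ccl21a. The 11 markers of that list summed to 47736 to 68260 normalized counts in muscle P3 and 27181 to 48732 in periosteum P3, against at most 17306 in other muscle groups and 1987 in other periosteum groups, and all of them were above 0 in every P3 group mean. Pecam1, an endothelial adhesion protein, was 8355 ± 2237 in muscle P3 and 5334 ± 2542 in periosteum P3 (SD, n = 3). In bone marrow P3 the list summed to 4481 to 18142 while Ccl21a was at most 2.73. Of 5 genes of lymphatic endothelium, picked after their values were seen and not tested, only Lyve1 had its highest means in the same groups as Ccl21a and stayed under 10 in every marrow group mean, at 329 ± 42.6 in muscle P3 and 224 ± 282 in periosteum P3.

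The other 4 did not follow Ccl21a across all groups. Flt4 was 710 ± 186 in muscle P3 and 1419 ± 472 in periosteum P3 but 1488 ± 1028 in bone marrow P3. Mmrn1 was 664 ± 324 in muscle P3, 428 ± 361 in periosteum P3 and 284 ± 209 in bone marrow P3. Prox1 was 267 ± 88.6 in muscle P1 and 196 ± 100.2 in muscle P3. Reln was 461 ± 431 in muscle P3, 363 ± 200.5 in periosteum P2, 283 ± 39.0 in periosteum P3 and 935 ± 74.9 in marrow P2. The part of endothelial cells in the Ccl21a levels was not tested.

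**Figure D5:**
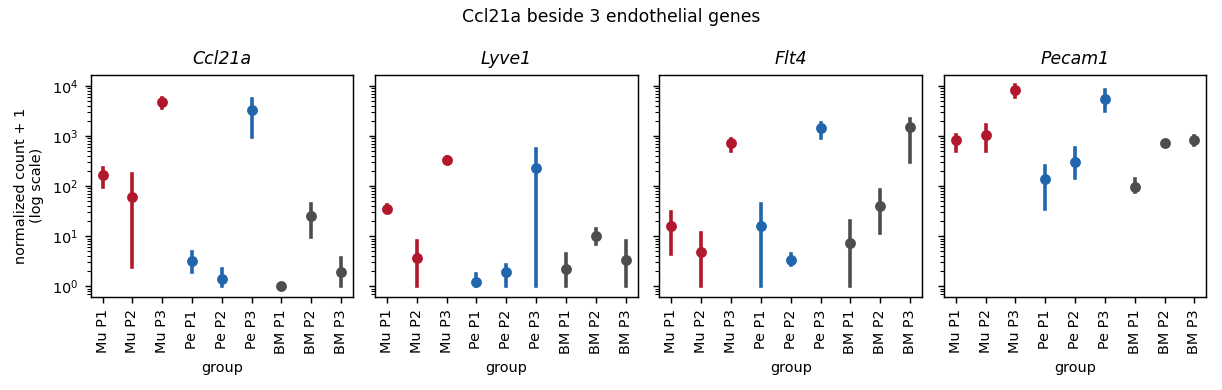
Normalized count + 1 on a log axis of Ccl21a, Lyve1, Flt4 and Pecam1 by group, with the dot at the mean and the bar from the lowest to the highest of 3 libraries. All 4 genes are highest in P3 of muscle and periosteum among the groups of those tissues by mean, while in bone marrow P3 Pecam1 and Flt4 have means of 818 and 1488 and Ccl21a is at most 2.73.

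Ccl19, the other Ccr7 ligand, was 117 to 1062 in muscle, 0 to 880 in periosteum and 13.96 to 358 in bone marrow, and it was called in no comparison. Cxcl13, which draws B cells into follicles through Cxcr5, was 649, 385 and 197 in muscle P1, 332, 0.97 and 657 in muscle P2 and 167, 228 and 194 in muscle P3, and it was listed at 0 in all marrow libraries. In periosteum it was at most 1.71 in 8 libraries and 1211 in replicate 1 of P2. Cxcl13 was called higher in muscle than in periosteum (5.85, SE 1.07, adjusted p = 0.000336). Ccl19 and Ccl21a overlap an antisense gene model, 4930578G10Rik.

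Ccl6, Ccl3 and Ccl9 were lower in muscle than in bone marrow, and Ccl6 and Ccl3 were also lower in periosteum than in marrow. Ccl6, a macrophage and neutrophil product, was 76.6, 16.1 and 161 in marrow P1, 182, 1237 and 861 in marrow P2 and 312, 178 and 111 in marrow P3. It was at most 57.6 in muscle, and in periosteum it was 432, 34.9 and 38.5 in P2 and at most 12.5 in the other groups. The log2 difference of Ccl6 from marrow was −4.44 in muscle (SE 0.88, adjusted p = 0.000421) and −4.99 in periosteum (SE 0.88, adjusted p = 0.000208). Ccl3, a macrophage inflammatory protein, was 3.78 to 290.2 in marrow (median 32.3, n = 9), and it was listed at 0 in 7 of 9 muscle and 8 of 9 periosteum libraries. Its log2 difference was −4.79 for muscle (SE 0.72, adjusted p = 1.48e-05) and −4.42 for periosteum (SE 0.72, adjusted p = 7.81e-05) against marrow. Ccl9, a Ccr1 ligand, was 0.84 to 82.6 in muscle and 12.5 to 477 in marrow (−3.37, SE 0.73, adjusted p = 0.000952), with overlapping ranges, and its difference between periosteum and marrow did not pass (−1.88, SE 0.73, adjusted p = 0.0585).

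Leukocyte markers, like Ccl6 and Ccl3, were mostly lower in muscle and periosteum than in marrow. Ccl9 was called lower in muscle alone. In periosteum it was 7.64 to 442, and the highest value was in P3, where the leukocyte sum was at most 2502. The 15 markers of the list in the table summed to 10784 to 116739 normalized counts in the marrow groups, against 323 to 1153 in muscle, 74.7 to 2502 in periosteum P1 and P3 and 812 to 73313 in periosteum P2. Of the 14 tested, 12 were lower in muscle than in marrow, beside 10.8% of all genes. In periosteum 12 were lower than in marrow, beside 16.8%. Ptprc, the gene of CD45 that the sort excluded, was 11.7 ± 5.24 in muscle P1, 173 ± 98.8 in marrow P1 and 610.4 ± 267 in marrow P2 (SD, n = 3). The part of leukocyte RNA in the levels of Ccl6, Ccl3 and Ccl9 was not tested. In muscle, where Cxcl1, Ccl2, Ccl7 and Ccl11 were highest, the leukocyte sum was below that of every marrow library. It was not below that of every periosteum library, and the part of leukocytes in the levels of these ligands was not tested.

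The remaining kept members were low. Ccl27a, a skin T cell attractant, was 53.8 to 249 in muscle, 0 to 103 in periosteum and 8.95 to 52.6 in marrow, and was called higher in muscle than in both (3.42, SE 0.51, adjusted p = 3.15e-05 against periosteum, and 2.37, SE 0.51, adjusted p = 0.000945 against marrow). It overlaps Il11ra1 on the opposite strand. Ccl25, a thymus and gut ligand, Ccl28, a mucosal ligand, and Ccl4, Ccl5, Ccl1 and Ccl22 passed in no comparison, with highest values of 317, 289.9, 86.1, 94.2, 97.5 and 139.6. The 13 entries not kept were Ccl12, Ccl17, Ccl20, Ccl26, Ccl27b, Cxcl17, Xcl1, 3 entries of Ccl21b and scaffold copies of Ccl19, Ccl21a and Ccl27a. Their highest value in any library was 41.9, for a Ccl21b entry in muscle P2, and 2 of them were listed at 0 in all libraries.

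P1, the population that the paper treats as skeletal stem cells by its surface profile, was compared between tissues on its own. The paper adds that P1 may also hold osteoblasts or osteocytes. The 9 osteoblast markers summed to 87740 to 149901 normalized counts in muscle P1, 759050 to 1532425 in periosteum P1 and 3124725 to 5245032 in marrow P1. The part of such cells in the P1 differences was not tested. Against periosteum P1, limma called 8 members higher and 0 lower in muscle P1, beside 4.34% and 0.559% of all genes, and 12 members had an unadjusted p under 0.05. They were Cxcl13 (log2 difference 8.22), Cxcl2 (7.93), Cxcl10 (7.34), Ccl21a (5.73), Ccl8 (5.55), Cxcl1 (4.91), Ccl2 (4.55) and Cxcl11 (4.48). Calls with 3 libraries a group were fragile. Leaving out 1 library at a time left between 4 and 7 called, and 4 without replicate 1 or without replicate 2 of muscle P1, with Ccl2 held in 0 of 6 such fits by limma, Cxcl10 in 1, Cxcl1 in 3 and Cxcl11 in 4.

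Against bone marrow P1, 9 members were higher and 1 lower in muscle P1, beside 5.4% and 2.94% of all genes. Cxcl1 (12.42), Ccl2 (11.99), Ccl7 (11.04), Cxcl2 (4.54) and Cxcl11 (4.06) were higher, each with a marrow P1 library above 0. Ccl11, Ccl8, Cxcl13 and Ccl21a were higher against marrow P1 libraries all listed at 0, while Ccl3 was lower and listed at 0 in muscle P1. Marrow P1 was still near 0 for Ccl2 (5.17, 0 and 0), Cxcl11 (9.98, 0 and 0), Ccl7 (at most 3.34) and Cxcl1 (at most 8.35). The size of such differences depends on the pseudocount, and that of Ccl2 was 10.2 to 14.3 under the processing alternatives. With 1 library left out, the call of Cxcl11 held in 2 of 6 fits, that of Cxcl2 in 4 and that of Ccl3 in 5. In periosteum P1, 3 members were higher and 2 lower than in marrow P1, beside 1.91% and 2.96% of all genes. Cxcl1 (7.51) and Ccl2 (7.45) were higher over the same low marrow P1 values, as was Ccl11, which marrow P1 lists at 0. Ccl3 and Ccl6 were lower and listed at 0 in periosteum P1. With 1 library left out, the call of Ccl3 held in 2 of 6 fits and that of Ccl6 in 3, and the count was 3 without replicate 1 of periosteum P1 and without replicate 1 or replicate 3 of marrow P1.

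Within a tissue, few members separated P1 from P2 and P3. In muscle, 0 of 30 members were called by limma, 1 had an unadjusted p under 0.05, and 1.05% of all genes were called. In periosteum 3 members were called, beside 9.16% of all genes, with Ccl27a higher in P1 (2.51, SE 0.76, adjusted p = 0.0372) and Cxcl2 (−4.84, SE 1.04, adjusted p = 0.00355) and Ccl21a (−4.28, SE 1.005, adjusted p = 0.00723) lower. Ccl27a held in 5 of 9 fits that left out 1 library, and without replicate 1 or without replicate 3 of periosteum P2 there were 5 calls. In bone marrow 3 members were called, beside 18.9% of all genes, with Cxcl14 higher in P1 (2.94, SE 0.77, adjusted p = 0.00828) and Cxcl2 (−3.16, SE 1.04, adjusted p = 0.0338) and Ccl24 (−3.02, SE 0.78, adjusted p = 0.00714) lower. Cxcl14 in marrow P1 (620 to 1797) overlapped P3 (561 to 3104), so its call rested on P2. Ccl24 was 8.30 to 85.3 in marrow P2, and P1 (0 to 1.68) overlapped P3 (0.95 to 4.24). Cxcl2 held in 4 of 9 fits that left out 1 library, and without replicate 3 of marrow P1 there was 1 call.

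The difference of P1 from P2 and P3 was itself compared between tissues. For Cxcl2 it was higher in muscle than in periosteum by 6.42 (SE 1.47, adjusted p = 0.017), the 1 member called beside 2.44% of all genes. Between muscle and bone marrow 4 members were called, beside 7.41% of all genes, and these were Ccl24, Cxcl14, Cxcl2 and Cxcl11. Between periosteum and marrow 0 were called by limma, 3 had an unadjusted p under 0.05, and 2.8% of all genes were called.

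In some groups many ligands peaked in the same library. In muscle P3, replicate 2 had the highest value in 16 of the 25 members with a library at 10 or more, beside 34.2% of all such genes, and in muscle P1 replicate 2 had it in 12 of 25, beside 34% of all genes. The same held for replicate 1 of periosteum P2 in 16 of 24 members, beside 36.3% of all genes, and for replicate 1 of marrow P3 in 15 of 17, beside 39.9%. In marrow P2, replicate 3 led in 14 of 24 members, beside 45.4% of all genes. In the other groups replicates 1, 2 and 3 led in 4, 9 and 10 members (muscle P2), 8, 9 and 2 (periosteum P1), 7, 3 and 8 (periosteum P3) and 8, 0 and 6 (marrow P1). Leukocyte markers in periosteum P2 summed to as much as 73313 in 1 library, and the part of leukocytes, depth and handling in this pattern was not tested.

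Of 23 chemokine receptors in the table, 17 were tested. For muscle against periosteum 1 passed as higher and 1 as lower, beside 17.2% and 3.19% of all genes. For muscle against marrow the counts were 2 and 3, beside 10.9% and 10.8%. For periosteum against marrow they were 1 and 2, beside 4.01% and 16.8%. Ackr3, an atypical receptor that takes up Cxcl11 and Cxcl12 without G protein signalling, was the receptor with the most normalized counts, with 11035 ± 4412 normalized counts in P1 of muscle, 1347 ± 275 in P1 of periosteum and 328 ± 129 in P1 of marrow (SD, n = 3). It was higher in muscle than in periosteum by 1.74 (SE 0.29, adjusted p = 0.000113) and than in marrow by 5.07 (SE 0.29, adjusted p = 3.07e-12), and higher in periosteum than in marrow by 3.34 (SE 0.29, adjusted p = 6.24e-09). The others were chosen after their values were seen. Cxcr2, the receptor of Cxcl1 and Cxcl2, was lower in muscle than in periosteum (−1.52) and marrow (−2.77), Ackr2 was higher in muscle than in marrow (3.76), and Ccr1 and Cxcr4 were lower than in marrow in muscle (−5.39 and −2.30) and in periosteum (−6.14 and −2.53). Within P1 cells Cxcr4 was called higher in muscle than in periosteum (4.77, SE 1.07, adjusted p = 0.00903), and its difference of 2.50 between muscle and marrow did not pass (SE 1.07, adjusted p = 0.189). Ackr1, a decoy receptor of venous endothelium and red cells that binds many inflammatory ligands, and Ccrl2, a chemerin-binding relative, were called in none of the 3 tissue comparisons over all populations. In P1 cells Ackr1 was called higher in muscle than in periosteum (4.61, SE 1.08, adjusted p = 0.0122) and than in marrow (3.76, SE 1.08, adjusted p = 0.0272). Ackr1 was 745 ± 259 in P1 of muscle, 80.9 ± 105 in P1 of periosteum and 82.0 ± 70.3 in P1 of marrow.

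Other genes that the same signals induce were read beside the ligands. Of 22 NF-kappaB response genes, limma called 10 higher and 0 lower in muscle against periosteum, beside 17.2% and 3.19% of all genes. Of the list, 14 had an unadjusted p under 0.05, and the median log2 difference was 1.99, beside 0.56 over all genes. Against marrow, 11 were higher and 1 lower in muscle, beside 10.9% and 10.8% of all genes. Those with the highest means were Nfkbia and Nfkbiz, inhibitors of the pathway, with log2 differences of 0.08 and 0.61 from periosteum that did not pass, and 3.65 and 4.001 from marrow that did. Vcam1, an adhesion protein, differed by 2.40 from periosteum, which passed, and by −0.30 from marrow. Of 18 interferon response genes, limma called 5 higher and 0 lower in muscle against periosteum, beside the same 17.2% and 3.19% of all genes. Here 7 had an unadjusted p under 0.05, and the median log2 difference was 1.04, beside 0.56 over all genes. Against marrow, 2 were higher and 1 lower in muscle, beside 10.9% and 10.8% of all genes.

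Immediate early genes, which respond within minutes to tissue dissociation among other stimuli, separated marrow from the other tissues. Of 19 tested, 0 were called in muscle against periosteum by limma, beside 20.4% of all genes, and 7 had an unadjusted p under 0.05. In muscle 16 were higher than in marrow, beside 10.9% of all genes, and in periosteum 15 were, beside 4.01%. The log2 differences of Fos, Egr1 and Jun were 0.17, 0.79 and 0.62 between muscle and periosteum and 3.54, 5.24 and 2.92 between muscle and marrow. The list summed to 302733 to 351872 normalized counts in P1 of muscle, 138972 to 195173 in P1 of periosteum and 41826 to 56601 in P1 of marrow. In P2 the order of muscle and periosteum was reversed, at 74175 to 123943 and 126479 to 157070, with 13638 to 26628 in marrow. In P3 the sums were 210531 to 330237, 115955 to 142852 and 13827 to 61255 in muscle, periosteum and marrow. The part of dissociation in the chemokine levels was not tested.

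Markers of other cell types also differed between the tissues. Of all genes, 17.2% were called higher in muscle than in periosteum and 10.9% higher than in marrow. Of 10 myofibre markers, 10 were higher in muscle than in periosteum and 10 higher than in marrow, with median log2 differences of 7.55 and 8.96. In P1 cells alone 9 and 10 were higher, beside 4.34% and 5.4% of all genes. Of 11 endothelial markers, 11 were higher in muscle than in periosteum and 10 higher than in marrow, and of 10 mural cell markers 9 and 8 were higher. Of 9 markers of fibro-adipogenic progenitors, the interstitial mesenchymal cells of muscle, 4 were higher in muscle than in periosteum and 9 higher than in marrow. Their sum was 268976 to 453119 in P1 of muscle, 68108 to 187301 in P1 of periosteum and 10241 to 14245 in P1 of marrow. Prrx1, the gene of Prx1, was present in all groups, at 1260.4 ± 55.5 in P1 of muscle, 2879 ± 1558 in P1 of periosteum, 1969 ± 391 in P1 of marrow and 110.1 ± 53.3 in marrow P2 (SD, n = 3). The part of cell type composition in the chemokine differences was not tested.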

How the data were processed

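Full-length cDNA was made with SMART-Seq v4 and libraries with Nextera XT. The authors trimmed reads with Trim Galore, aligned them with STAR and normalized with DESeq2, and the deposited table holds normalized counts per gene, a signal that is comparable between libraries but is no raw count. The genome build, annotation and counting settings are not given in the sources used here. Library totals were 8631881 to 26230908 normalized counts. Whole reads could not be recovered, so the depth behind a value, and its counting error, are unknown.

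A total of 30153 entries were used (a reporter entry was left out) and 18442 with a normalized count of 10 in 3 of 27 libraries were tested with limma 3.58.1 (R 4.3.3) on log2(value + 1), with 9 group means, a mean-variance trend and Benjamini-Hochberg adjustment. On simulated data, 132 of 200 genes changed by 3 on the log2 scale between muscle and bone marrow were recovered among 18442, with 0 in the wrong direction. Positions and exon lengths were taken from GENCODE M21 by gene ID. The members and gene lists were chosen with earlier results of these data known. All members were accounted for. Values of every library were given for at most 15 members with the highest group means, every called member was named, and of other lists at most the 3 genes with the highest means were named, besides those said to be chosen later. Alternatives were other pseudocounts, filters, scalings and fits, and leaving out each library.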

Additional observations from a re-analysis of the deposited data

Results flagged for a closer look

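In 5 cases the difference of P1 from P2 and P3 differed between 2 tissues by the limma test of that difference. For Cxcl2 it was higher in muscle than in periosteum by 6.42 on the log2 scale (SE 1.47, adjusted p = 0.017) and than in bone marrow by 4.73 (SE 1.47, adjusted p = 0.0496). Cxcl2 was 301, 829 and 134 normalized counts in muscle P1, at most 1.36 in periosteum P1 and 15.2, 5.28 and 25.4 in marrow P1. In P2 it was 79.4, 97.3 and 90.7 in muscle, 463, 414 and 265 in periosteum and 331, 229 and 104 in marrow. For Cxcl11 it was higher in muscle than in marrow by 4.72 (SE 1.31, adjusted p = 0.028), with 26.1 to 44.7 in muscle P1 against at most 9.98 in marrow P1. Marrow P2 was 21.1, 9.86 and 117.5, above most of marrow P1, while muscle P2 was 5.14, 0 and 12.2. For Ccl24 it was higher in muscle than in marrow by 3.78 (SE 1.10, adjusted p = 0.0352), where marrow P1 was at most 1.68 and marrow P2 was 8.30 to 85.3. For Cxcl14 it was lower in muscle than in marrow, with a difference of −3.59 (SE 1.09, adjusted p = 0.0445), beside the 3 low values of marrow P2.

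None of these 5 calls held under every alternative and every left-out library.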

How the results depend on the processing

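Over the 3 tissue comparisons, the count of called members moved by less than 1.5 times under all alternatives run. Each library left out in turn gave 12 to 17 calls for muscle against periosteum, 13 to 15 for muscle against marrow and 9 to 12 for periosteum against marrow. In these comparisons 9 of 15, 11 of 14 and 7 of 10 calls held under every alternative and left-out library, among them Cxcl1, Ccl2, Ccl7, Ccl11 and Ccl21a in each. The difference of Cxcl14 between muscle and marrow turned to −0.38 with P1 and P3 alone. Quantile normalization set the median of all genes for muscle against periosteum to −0.01 in place of 0.56. It gave 10 members higher and 3 lower (Ccl9, Cxcl15 and Ccl28), beside 1915 and 1971 of all 18442 genes. For periosteum against marrow it gave 8 higher and 2 lower, beside 1582 and 1574.

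The comparisons within P1 or within a tissue were less stable, and the cause was not tested. For P1 cells, leaving out a library gave 4 to 7 calls for muscle against periosteum, 8 to 11 for muscle against marrow and 3 to 6 for periosteum against marrow, and a pseudocount of 0.1 gave 4 for the first. For P1 against P2 and P3, it gave 0 to 0 in muscle, 2 to 5 in periosteum and 1 to 4 in marrow, and the compared groups fitted alone gave 0 in periosteum and 6 in marrow. For the differences of that contrast it gave 0 to 2 for muscle and periosteum, 0 to 3 for muscle and marrow (0 without replicate 1 or 2 of muscle P1 or replicate 2 or 3 of marrow P1) and 0 to 1 for periosteum and marrow. The first was 0 with a pseudocount of 0.1, quantile normalization or the groups alone, and the second was 1 with a pseudocount of 0.1 and 2 with no filter, a mean of at least 50 or quantile normalization. For P3 against P1 and P2, it gave 1 to 1 in muscle, 1 to 4 in periosteum and 0 to 2 in marrow. Here muscle had 2 calls with no filter and 4 with the groups alone, periosteum had 1 with a pseudocount of 5, no filter or the groups alone, and marrow had 2 with a pseudocount of 5 or the groups alone, 0 with a mean of at least 50, 3 with the same total per library and 4 with quantile normalization.

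Libraries that share a replicate number did not deviate together (mean r over 36 pairs of groups 0.000242, none over 0.1), so the numbers were not used as pairs. With the replicate block, the count for muscle against periosteum was 15 and 75 of 78 member calls over all comparisons were kept. With 3 libraries a group and no counting error known, low members cannot be resolved further.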

Other observations

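Pf4 and Ppbp are platelet members of the CXC family whose symbols the rule did not match. Pf4 was 746 ± 549 normalized counts in bone marrow P1 (SD, n = 3), against 8.88 ± 1.84 in muscle P1 and 62.5 ± 69.7 in periosteum P1. Ppbp was 1949.7 ± 2406 in bone marrow P1 and 2.82 ± 4.89 in muscle P1. Of 9 megakaryocyte and platelet markers tested, which include both genes, limma called 7 lower in muscle than in marrow, beside 10.8% of all genes. These genes were chosen with their values known.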
